A study of Mus musculus with 9 samples.

Results

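The genes described here encode matricellular glycoproteins, secreted proteins that sit in the extracellular matrix and act on cell adhesion, migration and growth factor signalling. They are tenascin C (Tnc), periostin (Postn), SPARC (Sparc), SPARC-like 1, also called hevin (Sparcl1), fibronectin (Fn1), thrombospondin 1 (Thbs1), thrombospondin 2 (Thbs2) and osteopontin (Spp1). Every probe set whose annotation named only 1 gene, and whose gene was among these 8, was taken. Of the 8 genes, 7 were measured, by 14 probe sets, among 18193 genes in all. Spp1 was not analysed here, because no probe set in the annotation used names it.

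All samples came from CBA/CaJ mice of both sexes aged 8 to 12 weeks, with no treatment of the animals and no engineered allele named in the labels. Tissue samples were auditory nerve, dissected and used directly. Cultured cells were dissociated from such nerves with trypsin and DNase I and grown to confluency over 5 to 7 days in DMEM/F12 with 10% fetal bovine serum and B27, on plates coated with poly-L-ornithine and with fibronectin, itself the product of a gene studied here. Neurospheres were such cultures moved for another 12 days to serum-free proliferation medium with heparin (2 µg/ml), FGF (10 ng/ml) and EGF (20 ng/ml). Each group had 3 arrays, and the sources used here do not say whether the 3 came from separate animals or separate cultures. The p-values therefore reflect only the spread between arrays, which the fits partly pool over all genes, and that spread may be technical. The culture steps differ together in serum, medium, time and growth as a confluent layer or as spheres, so that these cannot be told apart.

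Matricellular proteins are modular: they bind collagens and other matrix proteins on one side and integrins and other cell surface receptors on the other, and several are abundant in development and after injury but scarce in resting adult tissue. Tenascin C and the thrombospondins are known from wounds and injured nerve, where fibroblasts and glia make them, and thrombospondins and hevin from astrocytes also promote synapse formation. Fibronectin is the classical adhesive protein of serum and of the connective tissue matrix. Periostin takes part in the cross-linking of collagen in tissues under load, and SPARC chaperones collagen as it is laid down.

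In the reference annotation (GRCm38.p6) Tnc lies on chromosome 4 at 63959785-64047015, Postn on chromosome 3 at 54359267-54391041, Sparc on chromosome 11 at 55394159-55420080 and Fn1 on chromosome 1 at 71585473-71653280. Thbs1 lies on chromosome 2 at 118111876-118127133 and Thbs2 on chromosome 17 at 14665500-14694262. Sparcl1, at 104079108-104114088, and Spp1, at 104435111-104441053, are neighbours on chromosome 5, in a cluster with the mineralised tissue genes Dspp, Dmp1, Ibsp and Mepe.

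The bases before the start of a gene hold the upstream part of its core promoter. They are shown for 4 genes whose RNA differed over the 3 groups, though for Sparc only by small steps, given below. The table of RefSeq promoters (GRCm38.p6) held 5 of the 8 genes. Each sequence is the 250 bases before the outermost annotated start, 5′ to 3′ on the strand of the gene, and capitals mark the motif matches found on either strand. Tnc is at chr4:64047016-64047265 on the minus strand, Thbs2 at chr17:14694263-14694512 on the minus strand, Postn at chr3:54359017-54359266 on the plus strand and Sparc at chr11:55420081-55420330 on the minus strand.
Tnc: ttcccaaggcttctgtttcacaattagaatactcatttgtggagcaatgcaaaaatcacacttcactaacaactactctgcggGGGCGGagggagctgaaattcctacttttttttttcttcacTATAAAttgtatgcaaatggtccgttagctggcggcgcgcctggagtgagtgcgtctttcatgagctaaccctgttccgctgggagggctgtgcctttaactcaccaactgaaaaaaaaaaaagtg
Thbs2: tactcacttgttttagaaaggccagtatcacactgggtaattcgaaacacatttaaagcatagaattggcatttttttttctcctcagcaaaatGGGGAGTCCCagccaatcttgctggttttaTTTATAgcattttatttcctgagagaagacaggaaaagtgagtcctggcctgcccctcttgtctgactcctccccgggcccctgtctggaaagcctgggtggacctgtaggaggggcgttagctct
Postn: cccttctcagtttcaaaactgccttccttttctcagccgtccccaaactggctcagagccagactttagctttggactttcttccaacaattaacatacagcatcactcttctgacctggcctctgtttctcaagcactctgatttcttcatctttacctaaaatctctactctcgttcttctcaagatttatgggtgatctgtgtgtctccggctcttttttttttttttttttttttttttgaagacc
Sparc: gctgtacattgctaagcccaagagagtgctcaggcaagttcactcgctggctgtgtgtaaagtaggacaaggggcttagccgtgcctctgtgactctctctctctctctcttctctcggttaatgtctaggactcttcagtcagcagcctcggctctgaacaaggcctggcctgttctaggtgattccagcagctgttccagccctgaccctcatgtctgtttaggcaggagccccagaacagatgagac
The motifs searched were the TATA box TATAAA, the AP-1 site TGANTCA, the TEAD site GGAATG, the GC box GGGCGG, the CArG box and the NF-kB site. In the Tnc sequence the capitals are TATAAA from -126 to -121 and GGGCGG from -167 to -162, counted from the start. In the Thbs2 sequence they are TATAAA on the opposite strand, which reads TTTATA here, from -126 to -121, and an NF-kB match from -156 to -147. The Postn and Sparc sequences held none of the 6 motifs. Over 32851 promoters of the same length, 12.4% held TATAAA, 32.7% GGGCGG, 12.6% GGAATG, 6.75% TGANTCA, 5% the NF-kB site and 1.47% the CArG box. A match describes the letters only.

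Signals are given as log2 RMA values, on which a difference of 1 is a 2-fold change. Comparisons are limma fits on the 6 arrays of a pair of groups, and a gene passed where its Benjamini-Hochberg adjusted p over the 18193 genes was below 0.05 and its fold change above 1.5. By that rule 42.7% of all genes passed between neurospheres and tissue, 42.4% between cultured cells and tissue and 17.9% between the 2 cultures. Against this background 5 of 7 matricellular genes passed between neurospheres and tissue, all higher in neurospheres, where 21.7% of all genes were higher and 21% lower. Between cultured cells and tissue 6 passed, with 5 higher in the cells (all genes, 20.4%) and 1 lower (22%), and between neurospheres and cultured cells 4 passed, with 1 higher in neurospheres (all genes, 9%) and 3 lower (8.91%). Neurospheres differed from tissue by a median of 2.61 log2 units over the 7 genes (0.047 over all genes). The median was 3.26 from tissue to cultured cells (all genes, -0.0091) and -0.35 from cultured cells to neurospheres (all genes, 0.051). Of the 14 probe sets, 10 passed between neurospheres and tissue (39.7% of all probe sets), 12 between cultured cells and tissue (40.5%) and 7 between neurospheres and cultured cells (17.1%). The 3 comparisons share arrays, so their counts are not independent of each other. All 7 genes passed the F test over the 3 groups (adjusted p under 0.05), as did 71.5% of all genes.

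Several properties of the samples moved with these groups. The 3′ minus 5′ signal of the actin control, which grows as RNA is degraded or copied only in part, was 2.71 ± 0.35 in tissue, 0.36 ± 0.037 in cultured cells and 0.70 ± 0.15 in the neurospheres (log2, SD, n = 3), and that of Gapdh was 1.98 ± 0.46, 0.19 ± 0.037 and 0.41 ± 0.12. Of 10 markers of spiral ganglion neurons 9 were lower in each culture than in tissue, and their mean level per array was 11.77 to 11.93 in tissue, 5.78 to 5.94 in cultured cells and 5.95 to 6.11 in neurospheres. Of 7 myelin and Schwann cell markers 6 were lower in each culture (11.72 to 11.81, 7.96 to 8.08 and 7.71 to 8.03), as were 6 of 7 astrocyte markers (10.71 to 10.96, 6.71 to 6.95 and 6.94 to 7.00) and 8 of 10 macrophage markers (8.09 to 8.43, 5.91 to 6.48 and 5.70 to 6.29). The astrocyte marker Slc1a3, counted as lower by its brightest probe set, is unsettled against tissue. Of its 6 probe sets, 3 passed as higher and 1 as lower in neurospheres, and 1 as higher and 3 as lower in cultured cells. Of 8 endothelial markers 6 were lower and 2 higher in neurospheres than in tissue, and 5 lower and 1 higher in cultured cells (8.12 to 8.29, 6.97 to 7.05 and 6.47 to 6.70). Of 8 fibroblast markers 7 were higher in neurospheres than in tissue, and 4 were higher and 1 lower in cultured cells, at 10.70 to 11.03 in tissue, 11.71 to 11.98 in cultured cells and 12.09 to 12.12 in neurospheres. Of 6 bone markers 1 was higher and 3 were lower in neurospheres than in tissue, and 2 were higher and 3 lower in cultured cells (8.65 to 9.04, 8.51 to 8.89 and 8.01 to 8.20). Beside these marker counts, 21.7% of all genes were higher and 21% lower in neurospheres than in tissue, and 20.4% and 22% in cultured cells. In neurospheres 3 of the 10 neuron markers (Snap25, Tubb3 and Map2, at 7.78, 7.23 and 7.20) and 6 of the 7 myelin and Schwann cell markers had means above 6.48, the level under which 40% of all gene means lie. The lowest of each list there were the neurofilament gene Nefh (3.86) and the myelin gene Mag (4.88), and the highest Schwann cell marker was Egr2 (10.18). The part of these markers and of RNA quality in the results below was not tested, and in bulk samples fewer cells of a type cannot be told apart from less RNA per cell.

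**Figure D1:**
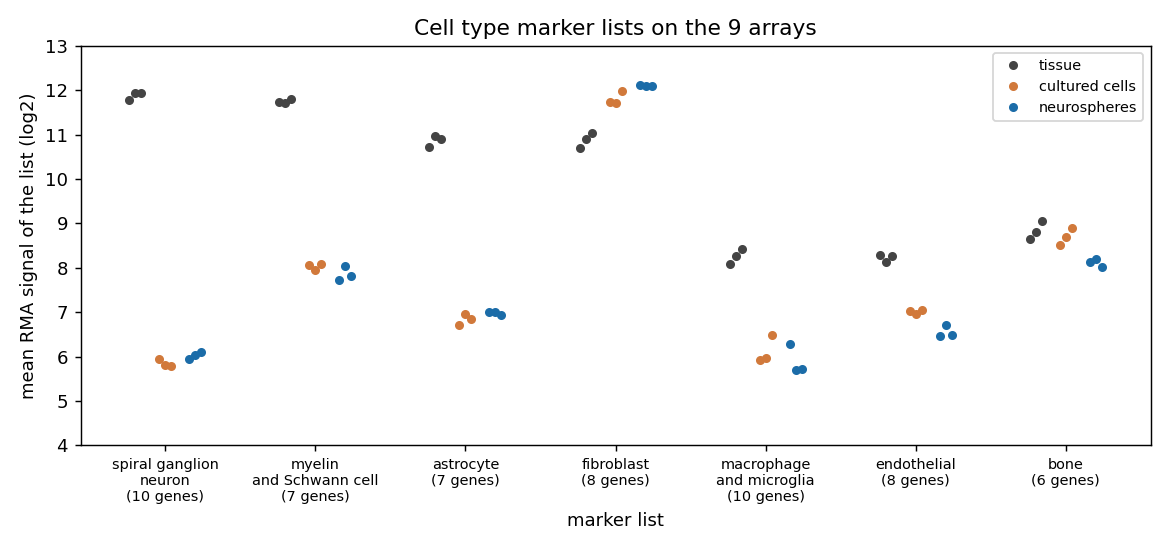
Mean log2 RMA level of each cell type marker list, 1 point per array, for tissue, cultured cells and neurospheres. The neuron list lies at 11.77 to 11.93 in tissue and at 5.78 to 6.11 in both cultures, and the fibroblast list at 10.70 to 11.03 in tissue and at 11.71 to 12.12 in the cultures.

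Tnc, Thbs1 and Thbs2 shared an order of levels, highest in cultured cells, lower in neurospheres and lowest in tissue. Tnc encodes tenascin C, a many-armed protein that loosens the adhesion of cells to fibronectin. Its log2 signal was 5.22, 5.40 and 6.08 in the 3 tissue arrays, 12.37, 12.46 and 12.56 in cultured cells, and 12.03, 11.49 and 11.20 in neurospheres. All culture arrays lay far above all tissue arrays, and the 3 neurosphere arrays lay below the 3 cultured cell arrays without overlap. Tnc was 119-fold higher in cultured cells than in tissue (log2 difference 6.90, SE 0.19, limma adjusted p = 1.69e-09), which was the sixth largest rise of all genes. It was 64.4-fold higher in neurospheres than in tissue (limma adjusted p = 1.24e-07) and fell by 0.89 on the log2 scale from cultured cells to neurospheres (SE 0.19, limma adjusted p = 0.00695).

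The tissue level of Tnc, 5.57 ± 0.45 (SD, n = 3), was below the 6.48 that bounds the dimmest 40% of genes, so its fold over tissue rests on a dim baseline. The other Tnc probe set gave 4.11, 4.06 and 3.71 in tissue, 8.74, 8.97 and 9.37 in cultured cells and 9.26, 8.36 and 8.03 in neurospheres. It rose by 5.06 in cultured cells and by 4.59 in neurospheres against tissue, but its culture groups overlapped. There its difference of -0.47 (95% interval -1.15 to 0.20, limma adjusted p = 0.273) did not pass, and with the mean of both probe sets in place of the brighter one the difference was -0.68 (limma adjusted p = 0.0577). The step from cultured cells to neurospheres was thus called for Tnc by 1 of its 2 probe sets.

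Thbs1 encodes thrombospondin 1, a trimer that activates latent TGF-beta and inhibits vessel growth through CD36 and CD47. Its signal was 5.61, 5.78 and 6.06 in tissue, 11.74, 12.12 and 12.31 in cultured cells and 10.63, 10.23 and 10.01 in neurospheres. No group overlapped another. Thbs1 was 75.6-fold higher in cultured cells than in tissue (log2 difference 6.24, SE 0.16, limma adjusted p = 1.04e-09), 22.2-fold higher in neurospheres than in tissue (4.47, SE 0.17, limma adjusted p = 6.66e-08) and fell by 1.77 from cultured cells to neurospheres (SE 0.19, limma adjusted p = 0.000189). Its tissue level, 5.82 ± 0.23, was also among the dimmest 40% of genes. The other Thbs1 probe set passed in the same directions, with differences of 4.74, 2.63 and -2.11. A further probe set that names Thbs1 together with Pald1 was left out.

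Thbs2 encodes thrombospondin 2, a trimer of the same subgroup that binds matrix metalloproteinases and is made by fibroblasts. Its signal was 8.32, 8.78 and 8.62 in tissue, 13.12, 13.13 and 13.18 in cultured cells and 11.11, 11.28 and 11.16 in neurospheres. The groups were narrow and well apart. Thbs2 was 23.8-fold higher in cultured cells than in tissue (4.57, SE 0.12, limma adjusted p = 1.10e-09) and 6.10-fold higher in neurospheres (2.61, SE 0.13, limma adjusted p = 2.65e-07). From cultured cells to neurospheres it fell by 1.96 on the log2 scale (SE 0.081, 3.90-fold, limma adjusted p = 1.73e-06). Its other probe sets passed in the same directions, with rises of 5.97 and 3.56 in cultured cells against tissue and differences of -2.16 and -1.58 from cultured cells to neurospheres.

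**Figure D2:**
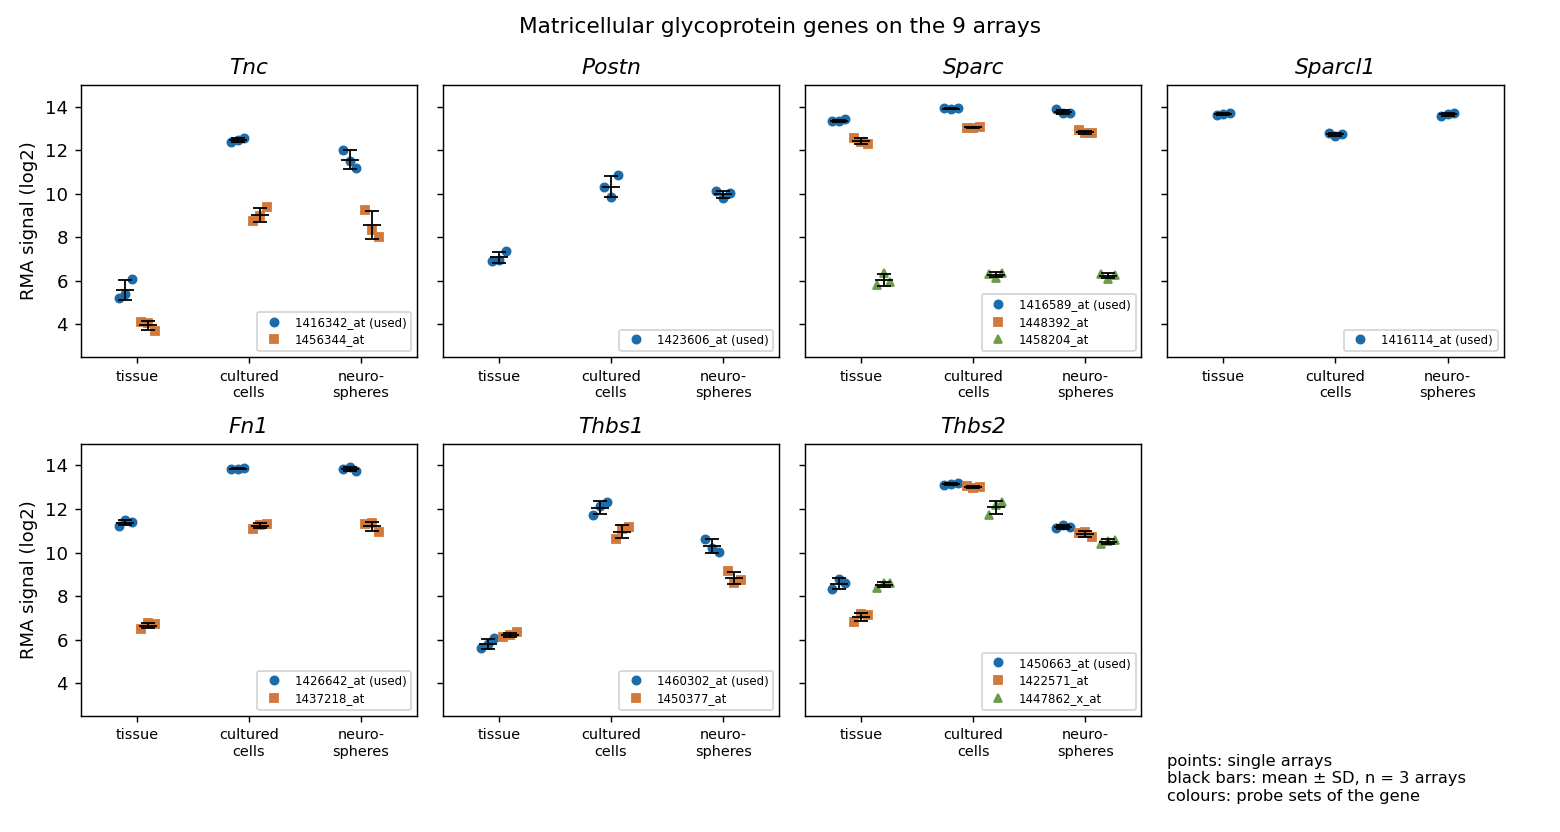
Log2 RMA signal of each measured matricellular gene on each of the 9 arrays, 1 panel per gene and 1 point per array, with each probe set in its own colour and black bars for the mean and SD of a group. By the probe set used for the gene Tnc, Thbs1 and Thbs2 are lower in neurospheres than in cultured cells, Fn1 and Postn stand at overlapping levels in both, and the 3 cultured cell arrays of Sparcl1, at 12.66 to 12.79, lie below the other 6.

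Fn1 and Postn were higher in both cultures than in tissue, at levels that overlapped between the cultures. Fn1, the fibronectin gene, measured 11.24, 11.49 and 11.39 in tissue, 13.84, 13.83 and 13.89 in cultured cells and 13.85, 13.91 and 13.76 in neurospheres. It was 5.58-fold higher in cultured cells (2.48, SE 0.090, limma adjusted p = 9.10e-09) and 5.54-fold higher in neurospheres (2.47, SE 0.097, limma adjusted p = 7.31e-08) than in tissue. Between the cultures the difference was -0.012 (95% interval -0.20 to 0.17, limma adjusted p = 0.925), and its sign turned to positive without cultured cells replicate 3 or without neurospheres replicate 3 (0.0044 and 0.030).

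The culture signals of Fn1 lay close to the highest signal of each array, which was 14.24 to 14.52. The dimmer Fn1 probe set measured 6.49, 6.75 and 6.71 in tissue, 11.10, 11.27 and 11.32 in cultured cells and 11.30, 11.34 and 10.95 in neurospheres. It gave larger differences from tissue, 4.58 for cultured cells and 4.55 for neurospheres, and -0.034 between the cultures. The size of the rise over tissue thus differed between the 2 Fn1 probe sets by over 2 log2 units, while the ranges of the cultures overlapped by both.

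Postn encodes periostin, a fasciclin-domain protein of periosteum, tendon and healing tissue. Its single probe set measured 6.90, 6.97 and 7.35 in tissue, 10.29, 9.85 and 10.85 in cultured cells and 10.11, 9.80 and 10.03 in neurospheres. Cultured cells were the widest group, with an SD of 0.50, and the neurosphere arrays lay within or just under their range. Postn was 9.55-fold higher in cultured cells (3.26, SE 0.23, limma adjusted p = 8.72e-07) and 7.51-fold higher in neurospheres (2.91, SE 0.14, limma adjusted p = 2.33e-07) than in tissue. The difference between the cultures, -0.35 (95% interval -0.86 to 0.17, limma adjusted p = 0.281), did not pass.

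Sparc encodes SPARC, also named osteonectin, an acidic calcium-binding protein that binds fibrillar collagens. It was bright in every group, at 13.35, 13.33 and 13.42 in tissue, 13.92, 13.89 and 13.93 in cultured cells and 13.87, 13.71 and 13.69 in neurospheres. The 3 groups did not overlap, but the steps were small. The differences of 0.55 for cultured cells (SE 0.077, 1.46-fold, limma adjusted p = 0.000151) and 0.39 for neurospheres against tissue (SE 0.089, 1.31-fold, limma adjusted p = 0.00407) had adjusted p-values below 0.05 and did not reach the fold of 1.5, and between the cultures the difference was -0.15 (95% interval -0.35 to 0.037, limma adjusted p = 0.197). Cultured cells against tissue passed by another probe set of Sparc (0.63, limma adjusted p = 0.000195) and with the arrays centred on the hybridisation controls (0.76). The third Sparc probe set was dim, between 5.79 and 6.38 on all arrays, and passed in no comparison.

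Sparcl1 encodes hevin, the closest relative of SPARC in sequence and a product of astrocytes, satellite glia and vessels. It measured 13.61, 13.66 and 13.71 in tissue, 12.79, 12.66 and 12.74 in cultured cells and 13.57, 13.67 and 13.71 in neurospheres. The tissue and neurosphere arrays shared a range and all cultured cell arrays lay below it. In that shared range, as for Sparc and for Fn1 in culture, the signals lay close to the highest of each array (14.24 to 14.52). No dimmer probe set of Sparcl1 was measured, and the part of that ceiling in the shared range was not tested. Sparcl1 fell by 0.93 from tissue to cultured cells (SE 0.081, 1.91-fold, limma adjusted p = 4.63e-06) and was 1.90-fold higher in neurospheres than in cultured cells (0.92, SE 0.082, limma adjusted p = 6.68e-05). Between neurospheres and tissue the difference was -0.0095 (95% interval -0.20 to 0.18, limma adjusted p = 0.933), with a sign that turned under other settings (0.051 with the arrays centred on the hybridisation controls). Of the 7 genes Sparcl1 alone passed as lower in cultured cells than in tissue, and it alone passed as higher in neurospheres than in cultured cells. Both differences were under the fold of 2. The astrocyte marker list stood at 10.71 to 10.96 in tissue, 6.71 to 6.95 in cultured cells and 6.94 to 7.00 in neurospheres. Between the cultures 2 of its 7 genes passed as higher in neurospheres (Slc1a3 and Aldoc), 1 as lower (Slc1a2) and 4 did not pass. In the same groups the endothelial list stood at 8.12 to 8.29, 6.97 to 7.05 and 6.47 to 6.70. The part of glia and vessels in the Sparcl1 values was not tested.

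**Figure D3:**
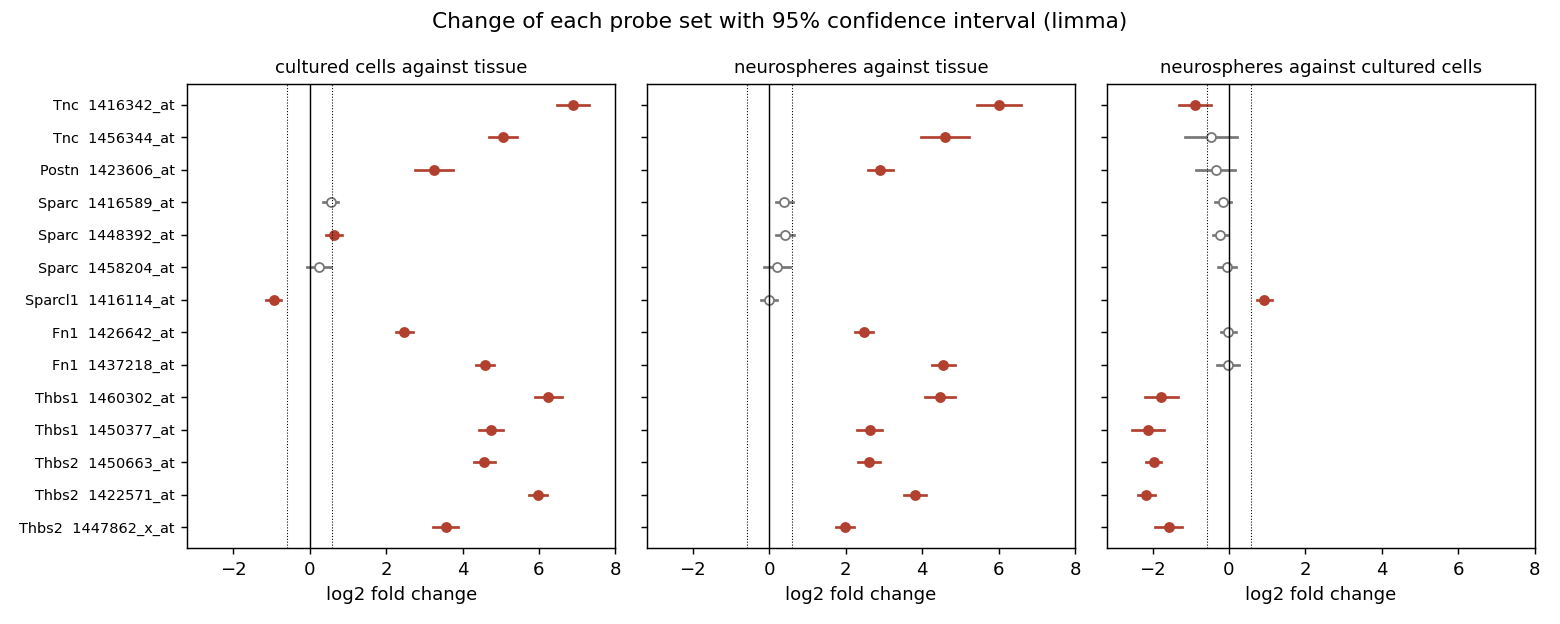
Log2 fold change (horizontal axis) of each of the 14 probe sets in the 3 pairwise comparisons, with the 95% interval from limma as a line, dotted lines at a fold of 1.5, filled points for probe sets that passed and open points for the others. The brighter probe sets of Tnc and Thbs1 lie farthest right in cultured cells against tissue (6.90 and 6.24), and Sparcl1 is at -0.93 from tissue to cultured cells and at 0.92 from there to neurospheres.

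For each gene, the genes with the most similar profile over the 9 arrays were found by the root mean square difference of profiles centred on their own means. Nearest to Tnc were Bub1 (0.43 log2 units) and Ccnb2 (0.46), to Thbs1 Depdc1a (0.22) and Kif2c (0.24), and to Thbs2 Ckap2l (0.19) and Kif4 (0.21). Nearest to Postn were Adamts1 (0.24) and Prrx1 (0.27), and to Fn1 Gpx8 (0.076) and Nubp1 (0.078). For Sparc they were Xpo5 (0.038) and Rasa2 (0.048), and for Sparcl1 Fmnl2 (0.066) and Ccpg1 (0.073). Adamts1, for example, had mean log2 signals of 8.32 in tissue, 11.57 in cultured cells and 11.33 in the neurospheres, beside 7.07, 10.33 and 9.98 for Postn. These distances describe 9 arrays in 3 groups and were not tested.

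Of the other tenascins and thrombospondins, 6 genes, none passed as lower in neurospheres than in cultured cells (all genes, 8.91%). With 6 genes, that count is near the share of all genes. In neurospheres 4 of the 6 were higher and 1 lower than in tissue (all genes, 21.7% and 21%). In cultured cells 1 was higher and 2 lower (20.4% and 22%), and between the cultures 3 were higher in neurospheres (9%). Tnn, tenascin N, passed in no comparison, with a mean of 5.31 in tissue, 5.78 in cultured cells and 5.42 in the neurospheres. Thbs3, a pentameric thrombospondin, rose in each step, from 5.76 ± 0.19 in tissue to 7.90 ± 0.073 in cultured cells and 9.21 ± 0.12 in neurospheres (neurospheres against cultured cells 1.31, limma adjusted p = 1.91e-05). Thbs4, pentameric as well and known from muscle and tendon, was at 5.68 ± 0.38 and 4.66 ± 0.23 in tissue and cultured cells and at 9.10 ± 1.2 in neurospheres, a rise of 4.44 over cultured cells (SE 0.51, limma adjusted p = 0.000287) with a wide spread among the neurosphere arrays. Tnxb, tenascin X of connective tissue, was higher in neurospheres by 1.81 than in cultured cells. Tnr, the tenascin of central nervous system nets, fell in both cultures against tissue (-4.17 in neurospheres and -4.07 in cultured cells).

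Among 6 other genes of the SPARC family, 2 were higher and 4 lower in neurospheres than in tissue (all genes, 21.7% and 21%). In cultured cells 2 were higher and 3 lower (20.4% and 22%). The testicans, brain proteoglycans with a SPARC-like domain, made up 3 of those that fell. Spock3 went from 11.66 ± 0.39 in tissue to 4.06 ± 0.057 in cultured cells and 2.82 ± 0.13 in neurospheres, although its second probe set differed by only -0.20 in neurospheres and -0.34 in cultured cells. Spock2 and Spock1 fell as well in neurospheres (-5.20 and -3.55), with all their probe sets lower. Fstl1, a secreted follistatin-like protein, rose by 2.08 in cultured cells and by 1.89 in neurospheres. The neuron markers, which were down in both cultures, moved with the testicans, and that relation was not tested.

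Tgfbi, the closest relative of periostin, and the CCN proteins, matricellular regulators often induced by serum and stretch, were higher in 6 of 7 genes in each culture against tissue. Of all genes, 21.7% were higher in neurospheres and 20.4% in cultured cells. From cultured cells to neurospheres 5 of the 7 fell and 1 rose (all genes, 8.91% and 9%). Ccn3 was at 9.31 ± 0.23 in tissue, 13.28 ± 0.039 in cultured cells and 11.10 ± 0.28 in the neurospheres (SD, n = 3). Ccn1 rose by 3.69 and Ccn4 by 3.23 in cultured cells, and both fell from there to neurospheres (-2.44 and -1.78). Of the 4 Ccn1 probe sets 2 passed as lower in that step, over a range of -2.44 to -0.54. Tgfbi went the other way between the cultures, from 10.14 ± 0.19 in tissue to 12.64 ± 0.22 and then 14.01 ± 0.083 in neurospheres. The median log2 difference of these 7 genes between neurospheres and cultured cells was -0.84, beside 0.051 for all genes.

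Of 9 fibulins, nidogens and related matrix proteins, 4 were higher and 4 lower in neurospheres than in tissue (all genes, 21.7% and 21%). In cultured cells 6 were higher and 3 lower (20.4% and 22%). Between the cultures 1 was higher and 4 were lower in neurospheres (9% and 8.91%). Nid2, a basement membrane linker, rose by 4.78 in cultured cells and by 4.01 in neurospheres. Hmcn1 (hemicentin) and Fbln5, a fibulin of elastic fibres, were above tissue in cultured cells (1.75 and 2.31) and below it in neurospheres (-2.38 and -1.34), although 1 of the 2 Fbln5 probe sets passed against tissue in neither culture. Vtn, vitronectin, fell in both cultures against tissue (-5.48 in cultured cells and -3.02 in neurospheres).

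Sparcl1 was set beside 4 measured neighbours from its cluster on chromosome 5, which encode phosphoproteins of bone and teeth. Against tissue, 2 of the 4 were higher and 2 lower in neurospheres (all genes, 21.7% and 21%). In cultured cells 1 was higher and 2 lower (20.4% and 22%). Dmp1 was at 12.20 ± 0.20 in tissue, 11.45 ± 0.13 in cultured cells and 13.81 ± 0.065 in the neurospheres. It was higher by 2.36 in neurospheres than in cultured cells with all 3 probe sets passing, whereas its lower value in cultured cells than in tissue (-0.75) turned to 0.20 when probe sets that the array design marks as able to bind several transcripts were left out. Ibsp, bone sialoprotein, moved the other way, from 10.87 ± 0.48 in cultured cells to 7.19 ± 0.57 in neurospheres. Mepe was lower in both cultures than in tissue (-1.55 and -2.26), and Dspp was higher in neurospheres than in tissue by 1.0 on a dim level of 5.37. Because cochlear bone surrounds the nerve, bone markers are given above, but Dmp1 and Ibsp are themselves 2 of those 6 markers. Of the other 4, Alpl was higher in cultured cells and lower in neurospheres than in tissue, Sost was lower in both, Phex was lower in cultured cells, and Sp7 did not pass. The part of bone cells in these values was not tested.

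Receptors of matricellular proteins comprised 19 genes. In neurospheres 9 were higher and 5 lower than in tissue (all genes, 21.7% and 21%). In cultured cells 6 were higher and 4 lower (20.4% and 22%), and the count of lower ones was near the share of all genes. Between the cultures 5 were higher and 2 lower in neurospheres (9% and 8.91%). There the call of Itga5, 1 of the 5, was lost in 5 of the 6 omissions of a single array. Itgb1, the beta subunit shared by the fibronectin and tenascin receptors, went from 7.95 ± 0.061 in tissue to 12.21 ± 0.052 in cultured cells and 11.62 ± 0.14 in neurospheres, with 5 of its 6 probe sets passing as higher in each culture and the other at -0.16 and -0.061. Itga5, its partner in the fibronectin receptor, rose by 2.81 and 3.50 with all 4 probe sets, from a dim 4.46 ± 0.15 in tissue. Itgb3, which pairs with the alpha v subunit to bind periostin, osteopontin and vitronectin, was at 6.15 ± 0.017 in tissue and 6.02 ± 0.069 in cultured cells, which did not pass, and higher by 2.86 in neurospheres than in cultured cells. Cd44, a receptor of osteopontin and hyaluronan, rose by 0.90 and 1.26, with 3 of its 4 probe sets higher in each culture.

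Other receptors went down, did not pass or gave mixed calls. Ptprz1, a receptor phosphatase of glia that binds tenascins, was at 9.34 ± 0.16 in tissue, 8.21 ± 0.20 in cultured cells and 5.03 ± 0.36 in the neurospheres. Itga4 fell in cultured cells and neurospheres (-1.87 and -1.90), though only 1 and 2 of its 5 probe sets passed, as did Itgb8, which frees TGF-beta from its latent form (-1.28 and -1.82). Stab1, a scavenger receptor of macrophages that takes up SPARC, fell as well (-1.47 and -1.43), and the macrophage markers were lower in the same groups. Lrp1, the endocytic receptor of the thrombospondins, had probe sets called in opposite directions in cultured cells against tissue (-0.75 and 0.92), and its direction there is unsettled, while both its probe sets were higher in neurospheres than in tissue (0.65 and 1.10). The thrombospondin receptor Cd47 differed by -0.26 in cultured cells and -0.012 in neurospheres and did not pass by its brightest probe set, while 2 and 3 of its 5 probe sets passed as higher.

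**Figure D4:**
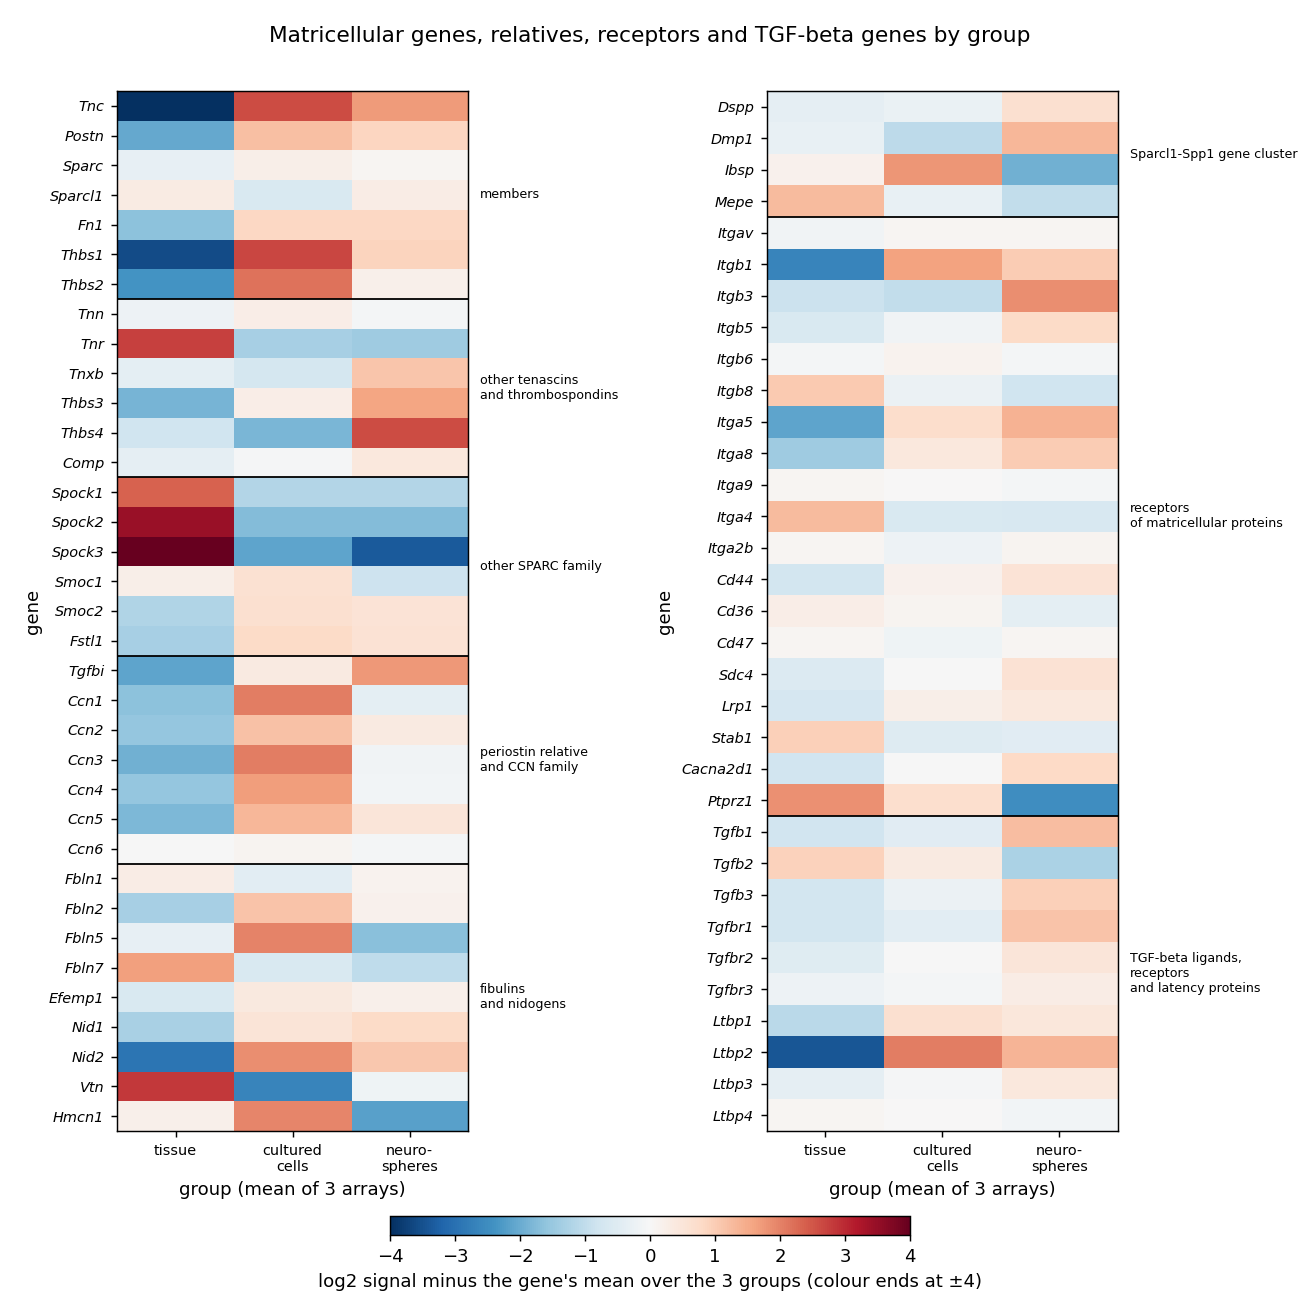
Heat map of the group means (3 arrays each) of the matricellular genes, their relatives, receptors and TGF-beta genes, with 1 row per gene and 1 column per group. Colour gives the log2 RMA signal minus the mean of that gene over the 3 groups, red above and blue below, and ends at 4 on either side. Spock1, Spock2 and Spock3 are red in tissue and blue in both cultures, Ccn1, Ccn3 and Ccn4 are reddest in cultured cells, and Thbs4 is red in neurospheres alone.

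TGF-beta induces several of the genes described here in fibroblasts, and thrombospondin 1 and the integrins act on its latent form. Of 10 measured ligands, receptors and latency proteins 7 were higher and 1 lower in neurospheres than in tissue (all genes, 21.7% and 21%). In cultured cells 2 were higher and none lower (20.4% and 22%), and the count of higher ones was near the share of all genes. Between the cultures 3 were higher and 2 lower in neurospheres (9% and 8.91%). Tgfb1 was at 5.30 ± 0.18 in tissue, 5.63 ± 0.29 in cultured cells and 7.30 ± 0.31 in the neurospheres, a rise of 1.67 over cultured cells (limma adjusted p = 0.00024) seen by 1 of its 2 probe sets. Tgfbr1, the signalling receptor, rose by 1.57 in the same comparison with all 3 probe sets. Tgfb2 fell by 2.20 in neurospheres against tissue, also with every probe set. Ltbp2, a latency-family protein of elastic tissue, was higher by 5.45 in cultured cells and by 4.78 in neurospheres than in tissue.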

How the data were processed

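Total RNA of 9 samples was labelled with a 3′ IVT kit and hybridised to Affymetrix mouse arrays. The deposited values are log2 signals that the authors made with RMA in Affymetrix Expression Console (tools from the submitters' processing notes, which also name MAS5; versions are not given in the sources used here). RMA quantile-normalises the arrays and summarises each probe set, so levels of different probe sets can be compared only roughly. Such levels were still used to choose a probe set per gene, to rank and average markers and to call genes dim or bright. Arrays carry no read depth: their number limits the precision. Array medians were 6.15 to 6.27.

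Of 45101 probe sets 64 controls were removed, 34945 named 1 gene, 932 several and 9160 none. Symbols were updated through Entrez identifiers to the GRCm38.p6 RefSeq table. Each of 18193 genes was represented by its probe set with the highest mean over all arrays, and every other probe set of the matricellular genes was tested too. Pairwise limma 3.58.1 fits in R 4.3.3 (lmFit, eBayes) used the 6 arrays of a comparison, with Benjamini-Hochberg adjustment. The study's own test was Student's unpaired t-test with dChip, used here as an alternative ("the methods' t-test"). The script was tested on simulated data. Named genes were the 8 matricellular genes, the 2 nearest profiles of each, and from each list up to 4 genes with the largest change that passed plus members that passed against the rest of their list; Cd44, Cd47, Itgb8, Lrp1, Stab1 and Itga4 were named as receptors after their values were seen. The genes and lists were chosen with earlier results of these data known. Alternatives were the probe set rule, filters on dim genes, centring, the prior, thresholds, a fit on all 9 arrays, omission of each array in turn and a replicate number block. Same-numbered samples did not deviate together in every pair, so numbers were not used to pair samples.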

Additional observations from a re-analysis of the deposited data

How the results depend on the processing

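Of 420 recomputed values of the 7 matricellular genes, 405 kept their direction and side of the threshold, 6 lost a call, 4 gained one and 5 turned sign without passing. The sign turns were Sparcl1 between neurospheres and tissue (0.051 with hybridisation controls, -0.040 to 0.030 leaving out 1 array) and Fn1 between the cultures (-0.048 to 0.030 leaving out 1 array). Tnc between the cultures lost its call with the mean of its probe sets, with the methods' t-test after Benjamini-Hochberg adjustment (adjusted p = 0.0724), by its other probe set and at a fold over 2. At a fold over 2 Sparcl1 passed nowhere and 2 of the 7 genes passed between the cultures. Sparc passed against tissue in both cultures with no fold threshold.

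Genes passing between neurospheres and tissue numbered 7762 of 18193 (42.7%), beside 17891 of 45037 probe sets (39.7%) and 4961 genes at a fold over 2. Between cultured cells and tissue they numbered 7718 (42.4%), with 18254 probe sets (40.5%), 11641 genes without a fold threshold and 4901 at a fold over 2. Between the cultures they numbered 3259 (17.9%), with 7685 probe sets (17.1%), and 6367 and 1618 genes at those thresholds. Leaving out 1 array gave 7647 to 7808, 7721 to 7776 and 3161 to 3369 genes, and 5, 6 and 4 matricellular genes each time. Centring on the hybridisation controls moved the median of all genes by 0.21 in cultured cells against tissue and by -0.15 between the cultures. With the replicate number as a block 7777, 7727 and 3253 genes passed and no call of a matricellular gene changed; pairs correlated between -0.19 and 0.21.

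Of 1319 recomputed values of named relatives and receptors 31 lost a call and 1 turned sign, Dmp1 in cultured cells against tissue, at 0.20. Apart from the filter on shared probe sets, the settings named above could not move these differences either. The small differences of Itga5 and Itgb1 between the cultures lost their calls in 5 and 2 of the 6 omissions of 1 array, and those of Mepe and Ltbp2 in 1 each. Itga5 (0.69, adjusted p = 0.0415) also lost it with the probe set mean, hybridisation controls, the trended prior (adjusted p = 0.0539), a fold over 2 and the methods' t-test, so its place among the receptors higher in neurospheres than in cultured cells is unstable. Thbs4 in cultured cells against tissue lost its call in the fit on all 9 arrays. The cause of these changes was not tested, beyond what fewer arrays or a higher threshold bring by construction.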
